A study of Rattus norvegicus with 20 samples.

Results

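The microRNA (miRNA) profile described here is that of rat skin, taken from 1 pooled small RNA library among the 20 libraries of the series. It was compared with the other 13 tissue pools and with brain, which was represented by the mean of its 3 hemisphere libraries, and the 3 serum libraries were left out. The rats were males of the Long Evans strain, 35 days old and without any treatment. The skin pool and each of the other 13 pools (fat from under the abdominal skin, heart, hindlimb muscle, kidney, large and small intestine, liver, lung, pancreas, spleen, stomach, testes and thymus) combined the RNA of 3 rats, whereas each brain hemisphere was sequenced alone. Which part of the skin was sampled, and whether fur or the fat beneath it was removed, is not given in the sources used here. With 1 library per tissue the spread between rats was not measured, so no test was made and every interval below covers counting error only.

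A miRNA is cut from a hairpin precursor as an arm from its 5′ side (5p) or its 3′ side (3p), and it recognises messenger RNAs mainly through its seed, the bases from position 2 to position 8 of the mature strand. Skin is layered. A stratified epithelium of keratinocytes, with its hair follicles and melanocytes, lies over a dermis rich in fibroblasts, vessels and nerves, and over fat and a thin sheet of striated muscle in rodents. miR-203 and miR-205 are known as miRNAs of stratified epithelia, where miR-203 accompanies the exit of keratinocytes from the basal layer and miR-205 marks their growing progenitors. miR-31 is known in the growing hair follicle, the miR-200 family in epithelia at large, and miR-199a and miR-214 in fibroblasts and other mesenchymal cells.

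Mature sequences of some of the miRNAs described below are printed here from RefSeq (rat assembly GRCr8), from 5′ to 3′, with the seed in capitals. Not all of them were highest or abundant in skin. The first 4 belong to the precursors that stood farthest above the other tissues among those with skin as the highest tissue:
miR-205: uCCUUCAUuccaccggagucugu
miR-203a-3p: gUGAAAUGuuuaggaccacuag
miR-1247-5p: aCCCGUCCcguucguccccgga
miR-31a-5p: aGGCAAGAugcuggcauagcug
The next 5 come from the paired miR-23, miR-27 and miR-24 clusters, which carried the most reads of the skin-highest precursors:
miR-27a-3p: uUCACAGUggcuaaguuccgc
miR-27b-3p: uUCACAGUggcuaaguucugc
miR-23a-3p: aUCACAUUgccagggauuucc
miR-23b-3p: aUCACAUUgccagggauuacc
miR-24-3p: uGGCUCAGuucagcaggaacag
The remaining 6 are members of the sensory miR-183 cluster, the Hox-cluster miRNAs and the melanocyte pair:
miR-182: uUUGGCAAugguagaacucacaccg
miR-96-5p: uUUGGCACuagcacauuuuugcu
miR-196a-5p: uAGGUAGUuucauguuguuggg
miR-196b-5p: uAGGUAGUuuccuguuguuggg
miR-204-5p: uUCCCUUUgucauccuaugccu
miR-211-5p: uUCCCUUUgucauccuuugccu
Within the pairs the seed was shared and a single base differed, which, counted from 1 at the 5′ end and with the first-named miRNA's base first, was U19C for miR-27b-3p against miR-27a-3p, U19A for miR-23a-3p against miR-23b-3p, A12C for miR-196a-5p against miR-196b-5p and A17U for miR-204-5p against miR-211-5p.

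The skin library held 752895 reads on miRBase precursors, more than 11 of the other 16 libraries, which ranged from 162080 to 3685761. Levels are given as RPM, the reads of a precursor after its library's precursor total was scaled to 1000000. A count of 3 reads in skin corresponded to 3.98 RPM, the smallest level treated as detectable. The 10 most abundant precursors took 67.7% of the skin reads, against 53.4% to 84.7% in the other libraries. Of 444 precursors, 295 reached 10 counts in 3 or more of the 17 tissue libraries and were compared, and 149 did not. Among those 149, 101 had no skin read and 3 had 10 or more, up to the 33 reads of mir-196c. The difference of skin from the other tissues is log2(RPM + 1) in skin minus the median of the same value over the other 14 tissues, so a pseudocount of 1 RPM pulls the differences of low precursors towards 0.

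The library carried the markers of skin at high level. mir-203a and mir-199a, the markers named for the tissue, each had skin as the highest of the 15 tissues, at 40295 RPM (95% Wilson interval 39853 to 40742) and 7694 RPM (7499 to 7894). The library labelled pancreas held mir-122, the hepatocyte miRNA, at 14862 RPM, a level close to the 14726 RPM of liver. mir-216a and mir-217, which are typical of the pancreas, reached at most 36.1 RPM in any tissue, in brain. Below, the pool labelled pancreas keeps that name by its label only, and it counts among the other 14 tissues. Without that library, 125 precursors instead of 126 were at least 2-fold higher in skin, 19 instead of 20 were at least 2-fold lower, and 16 still had skin as the highest tissue.

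Precursor levels were shifted upwards in skin as a whole. The median difference over the 295 precursors was 0.74, a 1.67-fold higher level, with 207 precursors above 0 and 72 below. At least 2-fold higher levels were found for 126 precursors (42.7% of those compared) and at least 2-fold lower levels for 20 (6.78%). Some of the 126 lay below the 3 reads treated as detectable, such as mir-138-2 and mir-496 with 1 skin read and mir-543 with 2. The 126 held 48.2% of the skin reads and the 20 held 1.68%. This shift depended on the scaling. With TMM factors the median difference was 0.38 and with DESeq2 size factors it was 0.07, and the split of higher to lower precursors went from 126 to 20 with totals to 107 to 21 and 89 to 37. Measured from the median precursor, 79 were at least 2-fold higher and 53 at least 2-fold lower. Single differences are therefore read below against the median of 0.74. Under all 3 scalings, 89 precursors were at least 2-fold higher and 16 at least 2-fold lower.

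Most precursors that were higher in skin were not highest there. Among the 126, brain was the highest other tissue for 51, and its level exceeded that of skin for 49 of them. Muscle was the highest other tissue for 21, and exceeded skin for 19. With TMM factors muscle replaced brain as the most frequent of these tissues, with 39 of the 126 above skin against 24 for brain, and with DESeq2 size factors the numbers were 39 and 13. Skin itself was the highest of the 15 tissues for 16 precursors (5.42%), 14 of them at 100 RPM or more, and these 16 held 18.2% of the skin reads. It was among the top 3 tissues for 73 precursors and the lowest tissue for 4.

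**Figure D1:**
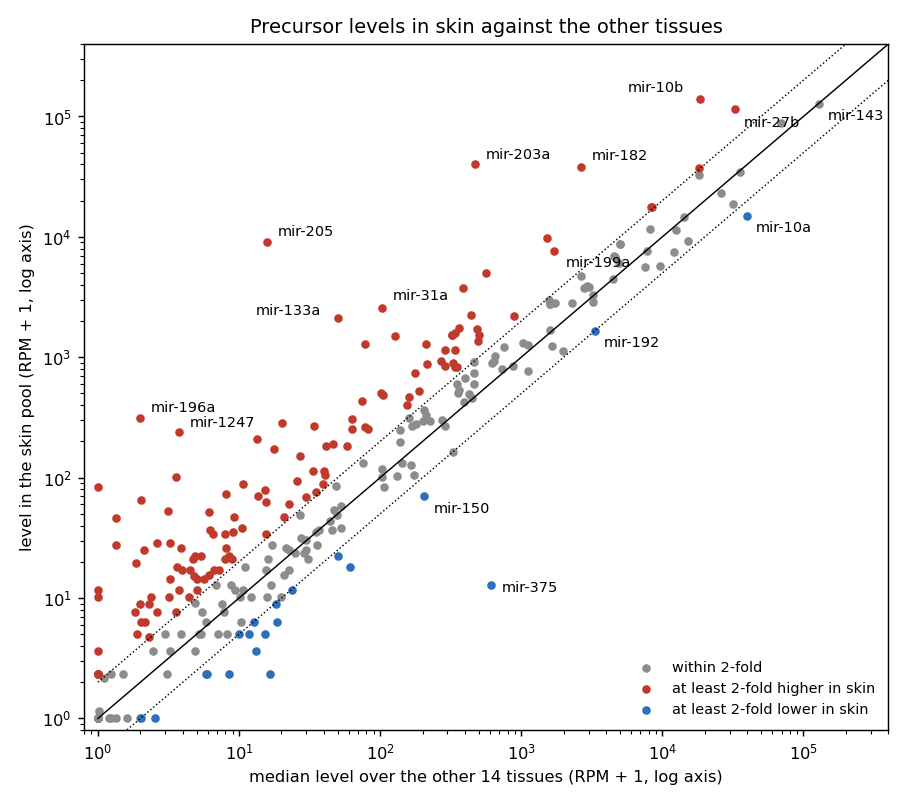
Level of each of the 295 compared precursors in the skin pool (vertical, RPM + 1, log axis) against its median over the other 14 tissues (horizontal, RPM + 1, log axis). The solid line marks equal levels and the dotted lines a 2-fold difference. mir-205 and mir-203a stand farthest above the line among the abundant precursors, mir-375 farthest below, and 126 precursors lie at least 2-fold above against 20 below.

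The miRNAs of stratified epithelium set skin apart most. mir-205 was at 9133 RPM in skin (8920 to 9350, 6876 reads), against 0 RPM in heart and pancreas, a median of 14.9 RPM over the other 14 tissues, and 997 RPM in stomach, the next tissue. Its difference from the median was 9.17, the largest of all skin-highest precursors, and skin exceeded stomach 9.16-fold (8.51 to 9.87). After stomach came fat, at 419 RPM, thymus, at 184 RPM, and large intestine, at 153 RPM. The hairpin, Mir205, lies at chr13:107564535-107564642 on the minus strand of GRCr8, between the genes Camk1g and Plxna2.

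mir-203a had 30338 reads in skin. In the other tissues it ranged from 27.1 RPM in brain, where the 3 hemispheres gave 15.8 to 44.8 RPM, over a median of 468 RPM to 3398 RPM in stomach and 3077 RPM in small intestine. Skin exceeded stomach 11.9-fold (11.4 to 12.3), the largest gap to the next tissue of any skin-highest precursor. mir-205 and mir-203a were the only skin-highest precursors at 100 RPM or more that stood at least 4-fold above the next tissue. The gap was smaller with the other scalings: it was 5.19-fold (TMM) and 5.27-fold (DESeq2) for mir-203a, and 4.01-fold and 4.07-fold for mir-205. The 10 most abundant precursors took 84.7% of the stomach reads. The summed level of both miRNAs was 49428 RPM in skin and at most 4395 RPM elsewhere, in stomach, whose rodent forepart is itself lined by stratified epithelium.

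The hairpin Mir203, at chr6:137020705-137020801 on the plus strand between Aspg and Kif26a, is overlapped on the minus strand by Mir3545, the hairpin of miR-203b. The authors' counting assigned 7.22 skin reads to mir-203b. It split the reads of the pair in nearly the same proportion in every tissue, so this count does not measure the overlap. On mature strands miR-203b-3p was at 38.0 RPM in skin but at 259 RPM in kidney. How much of the mir-203a level in the other tissues came from the other strand was not tested. Among mature strands, miR-203a-3p was at 22286 RPM of the mature reads in skin, against 1925 RPM in stomach, and miR-203a-5p at 18.0 RPM. miR-205, of which a single strand is listed, was at 11700 RPM, against 1047 RPM in stomach. Both mature strands therefore also had skin as the highest tissue.

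mir-31a, known in growing hair follicles and in keratinocyte proliferation, was at 2582 RPM in skin (2470 to 2699), with 4.74 RPM in muscle, a median of 102 RPM and 983 RPM in liver. Skin was 2.63-fold above liver (2.34 to 2.97) and differed from the median by 4.65. With TMM and DESeq2 scaling small intestine became the next tissue, at a 1.53-fold and a 1.23-fold lower level. mir-1247, which lies next to Dio3 at chr6:135105885-135105966, was at 238 RPM in skin (205 to 275) with 179 reads. It was at 0 RPM in heart, kidney and testes and at most 64.0 RPM elsewhere, in liver, so skin was 3.71-fold above the next tissue (2.36 to 6.15), or 2.49-fold with TMM and 2.22-fold with DESeq2 scaling. Its difference from the median, 5.99, was the third largest of the skin-highest precursors after mir-205 and mir-203a. However, mir-1247 reached 10 counts only in skin, liver (21 reads) and lung (11 reads), so it passed the count filter only with its skin reads. mir-708 was at 282 RPM (246 to 322), 3.82 above the median, but brain stood at 259 RPM, and the ratio to the single hemispheres ran from 0.940 to 1.40, so skin and brain did not separate with totals. With TMM and DESeq2 scaling skin lay above every hemisphere, by 1.58-fold to 2.70-fold and by 2.21-fold to 3.03-fold, and stomach was the next tissue, 1.61-fold and 1.63-fold lower.

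The precursors of the miR-23, miR-27 and miR-24 clusters were high in skin together. One cluster, with Mir23a, Mir27a and Mir24-2, lies within chr19:40859455-40859843 between Zswim4 and Nanos3, and the other, with Mir23b, Mir27b and Mir24-1, within chr17:1818669-1819482 inside the gene Aopep. Skin was the highest tissue for 5 of the 6 precursors and the second tissue for the remaining one, mir-23b, at 899 RPM against 979 RPM in lung. With TMM factors mir-23b was highest in skin, 1.18-fold above liver, and with DESeq2 size factors 2 tissues were above it.

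mir-27b was the third most abundant precursor in skin, at 114459 RPM (113742 to 115181). The other tissues ranged from 10180 RPM in testes over a median of 32834 RPM to 67231 RPM in heart, below skin by 1.70-fold (1.68 to 1.72). mir-27a was at 1753 RPM, 1.38-fold above heart (1.26 to 1.51), and mir-24-2 at 1152 RPM, 1.52-fold above heart (1.36 to 1.71). mir-24-1 was at 740 RPM, 1.84-fold above lung (1.65 to 2.04), although both mir-24 copies yield the same miR-24-3p and their reads cannot be told apart on that arm. mir-23a, at 924 RPM, was within counting error of lung, with a ratio of 1.03 (0.946 to 1.12).

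The order in this group was less firm than for mir-205 and mir-203a. mir-23a fell behind heart with TMM and DESeq2 scaling, and mir-27a fell behind large intestine with DESeq2 scaling, while mir-27b and both mir-24 copies kept skin as the highest tissue under all 3. On mature strands, miR-27b-3p was the most abundant of this group in skin, at 148797 RPM against 77137 RPM in heart. All mature miRNAs with the seed UCACAGU, miR-27a-3p and miR-27b-3p, summed to 150871 RPM in skin and to at most 78512 RPM elsewhere, again in heart.

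Of the other skin-highest precursors, mir-199a was only 1.30-fold above muscle (1.25 to 1.34) at 5932 RPM and was followed by fat at 5598 RPM. mir-450a, from a cluster on the X chromosome with Mir450b, Mir542, Mir351, Mir503 and Mir322, was at 1604 RPM, 1.14-fold above muscle (1.06 to 1.22). mir-320 was at 404 RPM and mir-210, a miRNA induced by low oxygen, at 181 RPM. mir-320 lost the highest rank with both other scalings and mir-210 with DESeq2 size factors. mir-345 and mir-193b, at 78.4 and 21.3 RPM, completed the 16. Like mir-1247, mir-193b passed the count filter only with its skin reads, with lung and muscle as the other libraries. In all, 12 of the 16 kept skin as the highest tissue under all 3 scalings.

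**Figure D2:**
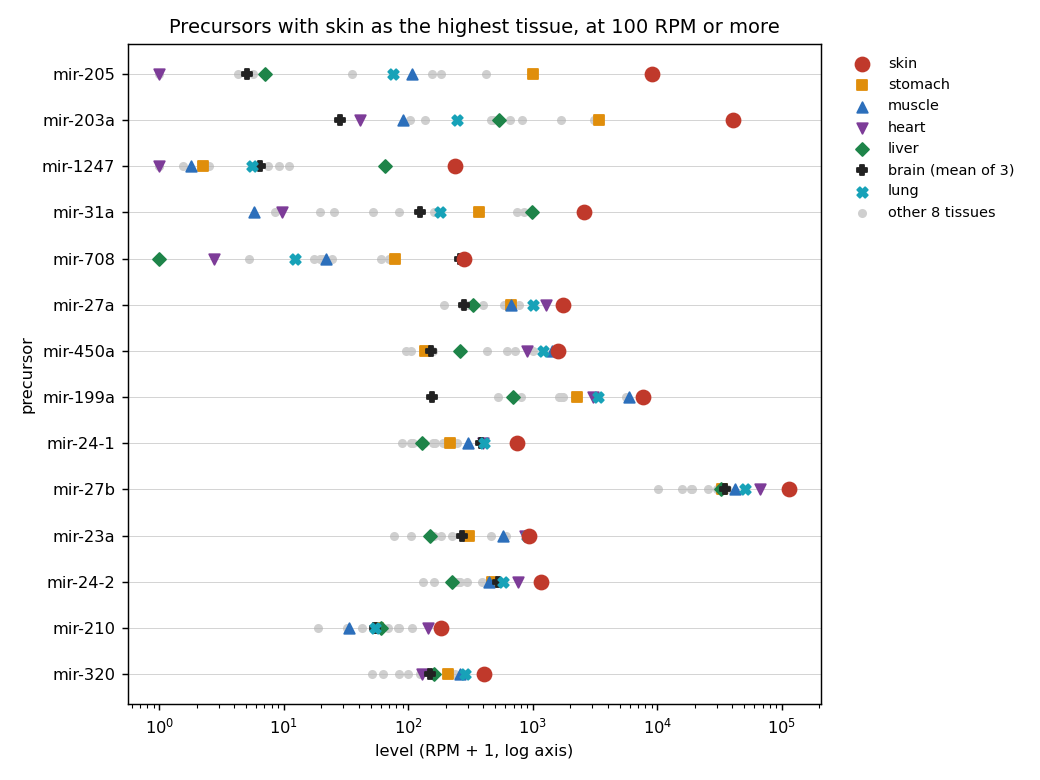
Levels (RPM + 1, log axis) of the 14 precursors that had skin as the highest tissue at 100 RPM or more, ordered by their difference from the median of the other tissues. Each point is 1 tissue (brain is the mean of 3 libraries), with skin in red. Skin stands clear of all other tissues for mir-205 and mir-203a, whereas for mir-708, mir-450a and mir-23a the next tissue lies beside it.

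The epithelial mir-200 family was high in skin, but not highest. All 5 precursors passed the count filter and all 5 were at least 2-fold higher than the median of the other tissues, where 42.7% of all 295 precursors were, and their median difference was 2.03 against 0.74. mir-141 was at 3792 RPM in skin, exceeded only by large intestine at 5206 RPM. mir-200b was at 1719 RPM, mir-429 at 1156 RPM, mir-200a at 877 RPM and mir-200c at 87.7 RPM. Their sum was 7631 RPM in skin, the third highest after large intestine, at 15432 RPM, and 1 other tissue, while the lowest sum was 24.6 RPM. Large intestine led the sum under every scaling, and skin was the fourth tissue with TMM factors and the fifth with DESeq2 size factors.

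The sensory mir-183 cluster, named for its role in hair cells, photoreceptors and touch neurons, was high in skin and brain, and which of them was higher depended on the scaling. mir-182 was at 38035 RPM in skin (37605 to 38469), with 41799 RPM in brain and 12410 RPM in lung, the third tissue, against a median of 2655 RPM. The ratio of skin to the single hemispheres ran from 0.850 to 1.009, so skin and brain overlapped with totals. With TMM factors skin was the highest tissue, 1.43-fold to 1.89-fold above the hemispheres, and with DESeq2 size factors it was also the highest, 1.91-fold to 2.61-fold above them and 1.28-fold above large intestine. On mature strands skin was higher with totals too, with miR-182 at 51454 RPM in skin and at 46455 RPM in brain.

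mir-96 was at 46.5 RPM in skin and 86.2 RPM in brain, but at 44.2 and 45.0 with TMM factors. mir-183 was listed at 209 RPM, but its hairpin is overlapped on the other strand by that of mir-3553, to which 967 of the 1124 skin reads of the pair had been assigned. The summed reads of the pair gave 1493 RPM in skin, the second level after the 3281 RPM of brain, and a difference of 4.05 from the median of the other tissues. Skin was 0.455 times brain in this sum with totals, 0.824 times with TMM factors and 1.08 times with DESeq2 size factors.

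The melanocyte pair shared a seed and differed in level. mir-211, which lies within Trpm1, a gene of the melanocyte lineage, had 20 reads in skin, or 26.6 RPM (17.2 to 41.0). Spleen was at 28.1 RPM, brain at 26.1 RPM and all other tissues at most at 5.02 RPM. mir-204, which lies within Trpm3, was at 1500 RPM in skin, below the 5797 RPM of brain and the 3868 RPM of testes.

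Hox-cluster miRNAs lie among the genes that mark position along the body axis, and in skin mir-10b and mir-196 were high while mir-10a was low. mir-10b, which lies within Hoxd4, was the most abundant precursor in skin, at 140154 RPM (139371 to 140940), or 2.93 above the median. It was higher in testes (232046 RPM), kidney (198457 RPM) and fat (193172 RPM), and lowest in pancreas, at 1110 RPM. mir-10a, which lies between Hoxb5 and Hoxb4, took the opposite direction. It was at 14956 RPM in skin, 1.41 below the median of 39851 RPM, and skin was 12th of the 15 tissues.

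mir-196a, between Hoxc10 and Hoxc9, was at 313 RPM in skin, 1134 RPM in muscle, 987 RPM in fat and 710 RPM in kidney. All other tissues were at or below 43.2 RPM, and 5 of them had no read. mir-615, within the Hoxc cluster, was at 45.2 RPM in skin, 54.0 RPM in muscle and 44.9 RPM in fat, and the remaining tissues were at most at 16.4 RPM. The 2 listed copies of mir-196b, at 82.3 and 99.6 RPM, were highest in large intestine and also present in muscle, kidney and fat. They share the mature miR-196b-5p but count separately in the list. Over the list, 5 of 6 precursors were at least 2-fold higher in skin, against 42.7% of all precursors, and 1, mir-10a, was lower, against 6.78%. The list's median difference was 4.96.

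miRNAs of striated muscle were also present in the skin library. mir-133a was at 2100 RPM in skin, against 68920 RPM in muscle, 27262 RPM in heart and a median of 49.6 RPM, and mir-133b was at 51.8 RPM, against 1115 RPM in muscle. mir-1, mir-1b and mir-206 had 4, 7 and 1 reads in skin, and the cardiac mir-208a had none. Over the 9 listed muscle precursors the sum was 2193 RPM in skin, nearly all of it mir-133a. This was the third highest sum after muscle and heart, with 14.1 RPM in the lowest tissue. Of the 4 that passed the count filter, 2 were at least 2-fold higher, a share near the 42.7% of all precursors. The other 2, mir-499 and mir-208b, had differences of 0.15 and −0.41. In a bulk library fewer cells of a type and less RNA per cell cannot be told apart, and the part that muscle has in the levels of mir-196a, mir-615 and the imprinted miRNAs described next was not tested.

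**Figure D3:**
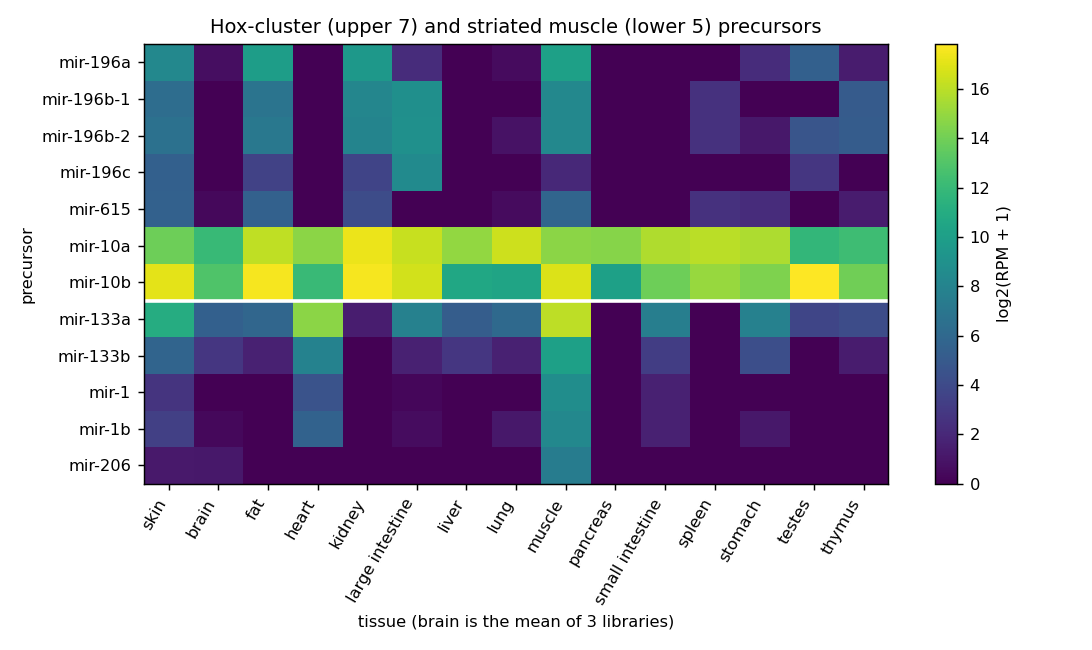
Levels of 7 Hox-cluster precursors (above the white line) and 5 striated muscle precursors (below it) in each of the 15 tissues, as log2(RPM + 1) on the colour scale. Skin shares the mir-196a and mir-615 signal with fat, kidney and muscle, while its mir-133a level of 2100 RPM is below the 68920 RPM of muscle and the 27262 RPM of heart.

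The miRNAs of the imprinted Dlk1-Dio3 region, which are expressed from the maternal chromosome and are known for their level in brain and in growing muscle, were the largest group that was higher in skin. Of 51 listed precursors 42 passed the count filter, and 37 of these were at least 2-fold higher in skin than the median, with none lower and a median difference of 2.16. The background for all precursors was 42.7% higher and a median of 0.74. Under TMM, DESeq2 and median-precursor scaling 33, 30 and 29 of them remained at least 2-fold higher. The list includes mir-653, which RefSeq places on chromosome 4 rather than on chromosome 6. Without it 36 of 41 were higher. Some members counted as higher rested on few skin reads, such as mir-496 with 1 and mir-543 with 2. mir-1247 and mir-299a passed the count filter only with their skin reads.

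In this group skin was an intermediate tissue. Its summed level was 11517 RPM, the fourth of the 15 tissues, against 89943 RPM in brain, a median of 1454 RPM and a minimum of 244 RPM. Skin was among the top 3 tissues for 17 of the 42 compared members, against 73 of all 295 precursors. mir-127, the most abundant member, was at 4971 RPM in skin, below brain (49957 RPM), muscle (47227 RPM) and fat (8101 RPM). With TMM and DESeq2 scaling muscle was above brain in the sum over the list, and skin remained the fourth tissue. mir-411 was at 2258 RPM, with 7641 RPM in muscle. mir-541 was at 1280 RPM in skin, 6063 RPM in brain and 5326 RPM in muscle, and mir-136 at 519, 3506 and 3285 RPM. mir-1247 stood apart from the group in that skin was its highest tissue.

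Markers of other cell types were uneven. mir-214, transcribed with mir-199a in mesenchymal cells, was at 62.1 RPM in skin and 62.3 RPM in fat. Of the endothelial miRNAs, mir-126a was at 7506 RPM, 0.69 below the median of the other tissues, while mir-221 and mir-222, which many growing cells also express, were 2.29 and 2.21 above it. The smooth muscle pair was not high in skin, with mir-143 at 127797 RPM (a difference of −0.01) and mir-145 at 163 RPM (a difference of −0.996). Of 6 leukocyte precursors 2 were at least 2-fold higher, mir-146b at 9726 RPM and mir-155 at 37.2 RPM, a share near the 42.7% of all precursors. In the same list 1 was lower, mir-150, where 6.78% of all precursors were. mir-142, which all leukocytes express, was at 772 RPM in skin against 65299 RPM in thymus. The erythroid mir-451 had 3 reads and mir-144 had 11, and the neuronal mir-124 had none, whereas brain held its 3 copies at 1585, 1535 and 1522 RPM. Of the 17 neural precursors that passed, 2 were higher, a share well below the 42.7% of all precursors, and 1 was lower, around a median of 0. Of these 2, mir-138-2 had 1 read in skin, below the detectable level, and mir-219a-1 had 8. Of the remaining lists, 1 of 5 mir-29 precursors was lower (6.78% of all precursors were), and 2 of 6 metabolic precursors were higher. Of 9 precursors of hair follicle and keratinocyte growth 5 were higher, mir-31a, mir-27b, both mir-24 copies and mir-130b. The shares of the metabolic and hair follicle lists lay near the 42.7% of all precursors.

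Few precursors were lower in skin with totals, and the largest deficit was that of mir-375, a miRNA of endocrine and mucosal secretory cells. It had 9 reads in skin, or 11.95 RPM (6.29 to 22.7), against a median of 611 RPM, 18328 RPM in large intestine, 11499 RPM in lung and 4247 RPM in stomach. Heart alone was lower, at 6.94 RPM from 4 reads, and muscle and thymus were also low, at 22.2 and 30.4 RPM. The difference of −5.56 in skin was the largest negative one among the 295. miR-375-3p gave the same picture on mature strands, with 17.4 RPM in skin and 22436 RPM in large intestine. Skin and stomach, which shared mir-205 and mir-203a, were thus far apart in this miRNA.

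Of the 20 lower precursors, 4 had a median of at least 100 RPM over the other tissues: mir-375, mir-150, mir-10a and mir-192. mir-150, of mature lymphocytes, was at 69.1 RPM in skin (52.7 to 90.6) against a median of 205 RPM and 2498 RPM in spleen. mir-192, of gut, liver and kidney, was at 1666 RPM against 3333 RPM, so that it lay at the 2-fold threshold, and its difference was −0.71 with TMM scaling. The mir-194 copies, which accompany mir-192, had 16 and 13 reads in skin. With totals 3 of the 4 listed liver, gut and kidney precursors were at least 2-fold lower, against 6.78% of all precursors, but 1 with TMM factors and 2 with DESeq2 size factors, with mir-194-1 then at −0.74 and −0.86. The remaining member, mir-122, went the other way, 1.54 above the median, at 6.64 RPM from 5 reads in skin. The next in order did not reach 2-fold with totals: mir-145, mir-30c-2, mir-30a, mir-191a, mir-30e, mir-30c-1, mir-126a and mir-142, with differences from −0.996 to −0.53. Measured from the median precursor they ran from −1.74 to −1.27, all past 2-fold. With DESeq2 size factors mir-145, mir-30c-2, mir-191a, mir-30c-1 and mir-142 passed 2-fold, and with TMM factors mir-191a did. The mir-30 members share the seed GUAAACA in their 5p arms.

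The remaining abundant precursors were common to many tissues. let-7f-1 was at 88838 RPM, 0.35 above the median and behind spleen and heart, and let-7i at 37045 RPM, 1.04 above. mir-22 was at 34350 RPM and mir-26a at 23086 RPM, with differences of −0.05 and −0.16. mir-148a was at 32449 RPM, 0.83 above the median. Together with mir-10b, mir-143, mir-27b, mir-203a and mir-182 they were the 10 most abundant of the library. Only mir-27b and mir-203a of these had skin as the highest tissue.

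**Figure D4:**
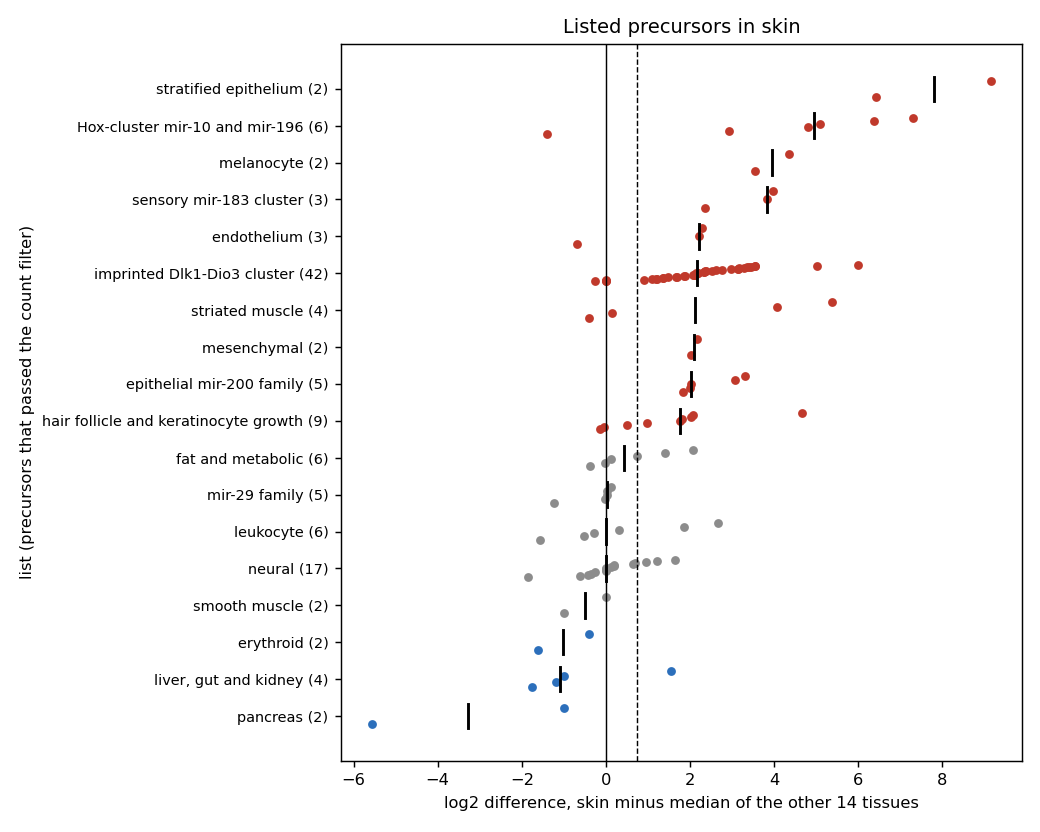
Difference of skin from the median of the other 14 tissues (log2, horizontal) for the members of 18 miRNA lists, with the number that passed the count filter in brackets. Each point is a precursor, the black bar is the list's median and the dashed line the median of 0.74 over all 295 precursors. The lists of stratified epithelium and Hox-cluster miRNAs have the highest medians, 7.80 and 4.96, and the pancreas list, which holds mir-375, has the lowest, −3.29.

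Over all 295 precursors the skin profile was most like that of fat. Across precursors, which are not independent replicates, log2 levels correlated with r = 0.940 for fat, 0.920 for stomach and 0.895 for large intestine, and least for brain, with r = 0.607. After the median of the 15 tissues was subtracted from each precursor, r was 0.50 for fat, 0.42 for muscle, 0.30 for stomach and 0.19 for large intestine, and between −0.02 and −0.29 for the other 10 tissues, with pancreas lowest. Without the Dlk1-Dio3 list, which left 253 precursors, the values were 0.43 for fat, 0.32 for muscle and 0.26 for stomach, so the order of these 3 tissues did not change.

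Set against fat alone, 72 precursors were at least 2-fold higher in skin and 38 lower, with a median difference of 0. Among precursors named for the size of this difference, mir-31a was 49.8-fold (34.1 to 78.3), mir-203a 49.1-fold (44.6 to 54.4) and mir-205 21.8-fold (19.0 to 25.2) higher, and so were mir-133a and mir-1247. mir-150, mir-375, mir-142, mir-363 and mir-342 were lower, with mir-142 at 772 RPM in skin and 11488 RPM in fat. Against muscle, 78 were higher and 75 lower. mir-31a, mir-203a, mir-200b, mir-141 and mir-182 led the higher side, with 3 of them at 13 reads or fewer in muscle, and mir-133a and mir-133b led the lower. Against stomach, 162 were higher and 27 lower, around a median of 1.18. These counts were made with totals only. The TMM factors were 0.461 for stomach and 1.05 for skin, which would lower skin against stomach, so this split depends on the scaling.

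**Figure D5:**
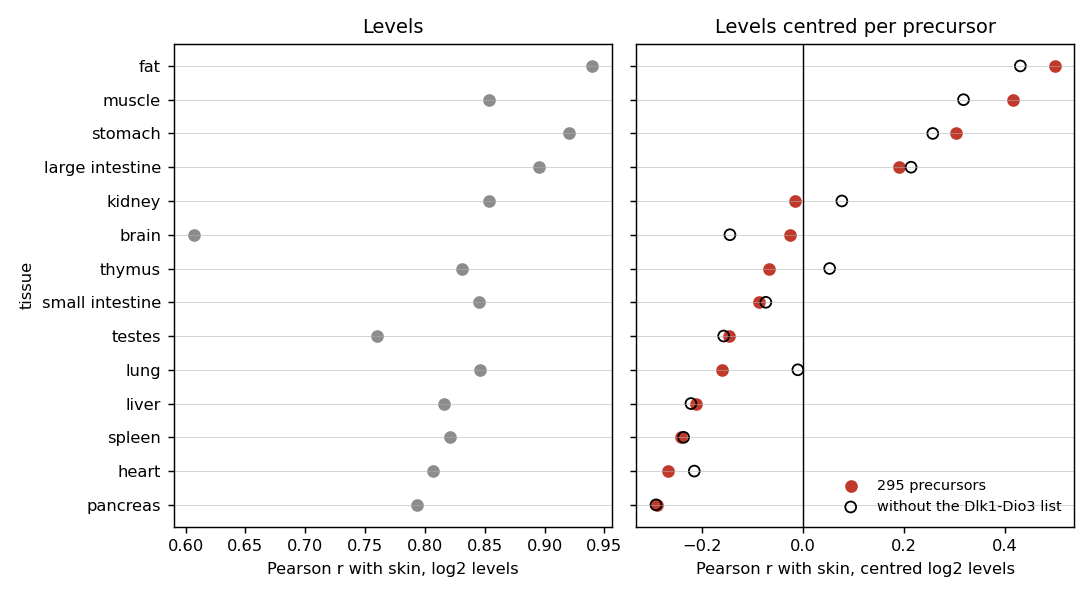
Pearson r between skin and each other tissue across 295 precursors, on log2(RPM + 1) (left) and after subtraction of each precursor's median (right). Open circles leave out the Dlk1-Dio3 list (253 precursors). Fat stands first in both panels, and pancreas stands last after centring, at −0.29.

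The balance of the arms in skin was mostly that of the other tissues. For 63 miRNAs with enough reads on their arms, the interval of the 5p share in skin met the range of the other tissues for 61, and the median absolute difference from their median was 0.180 percentage points. The remaining 2 lay below every other tissue: miR-423, with 75.5% from the 5p arm (72.9 to 77.9) against 80.8% to 92.9%, and miR-142, with 91.4% (87.0 to 94.4) against 94.6% or more. For miR-142 the upper bound came close to the lowest other tissue.

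The mature and precursor counts did not always match. Of the precursors examined, mir-320 alone had a share outside the range of the other tissues, at 63.8% in skin against 39.1% to 57.5%. The mature strands of mir-205 and mir-27b took 88.2% and 89.6% of their precursor's skin reads, whereas those of mir-203a took 38.1% (18.9% to 49.8% in other tissues) and those of mir-10b 1.48% (0.409% to 2.68%). The level of miR-10b-5p in skin was listed as 3018 RPM of mature reads. The RefSeq strand of miR-10b-5p has the seed CCUGUAG and that of miR-10a-5p ACCCUGU, so their annotated starts differ, and the mature count may miss reads of the strand that begin elsewhere. The precursor level is the one used here. Grouped by seed, 18 of the 85 seed families that reached 100 RPM in skin had skin as the highest tissue, with UCACAGU (miR-27), UUGGCAA (miR-182), UGAAAUG (miR-203a-3p), GAGAACU (miR-146) and CCUUCAU (miR-205) carrying the most reads. The miR-146 seed was highest in skin on mature reads, at 15640 RPM against 13539 RPM in lung. On precursor reads neither of its precursors was highest in skin, with mir-146b at 9726 RPM against 10360 RPM in lung. The 2 comparisons differ in annotation as well as in grouping.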

How the data were processed

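TruSeq small RNA libraries were run by the authors on a MiSeq. They removed bases below phred 20, mapped with Bowtie to the rat build Rn5, and counted on miRBase and RefSeq miRNAs. Tool versions are not given in the sources used here. The values the authors deposited are estimated counts (expected counts, partly fractional and not normalized) per miRNA under 3 annotations that count the same reads. Here each annotation was used alone and divided by its own total (RPM). Where a hairpin overlaps one on the other strand, or copies share a mature sequence, the counting could split reads. Fractional counts were rounded for the filter and intervals.

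The members and lists were chosen with earlier results of these data known. Named precursors are the 2 markers, the 12 largest differences with skin highest at 100 RPM or more, any skin-highest one at least 4-fold above the next tissue, the 12 largest negative differences with a median of at least 100 RPM, the 10 most abundant, and list members. Others, such as mir-320, mir-210, mir-345, mir-423 and those set against fat, muscle or stomach, were named after their values were seen. Ratios to the next tissue carry exact conditional binomial intervals at 95%, shares Wilson intervals. Reads are not independent molecules, so these cover counting error only. Alternative scalings came from edgeR 4.0.16 (TMM) and DESeq2 1.42.0 in R 4.3.3, and the rest from Python 3.11.15 (SciPy 1.17.1, pandas 2.3.3, NumPy 2.4.6), with figures drawn in Matplotlib 3.10.9. Other alternatives covered the pseudocount, filter, annotation, depth, reference level, fold and each library left out. The scripts were tested on simulated counts. Sequences, loci and neighbouring genes are from RefSeq (GRCr8), in which 534 of 577 mature names matched. Arm shares needed at least 100 reads in skin and in at least 5 other tissues.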

Additional observations from a re-analysis of the deposited data

How the results depend on the processing

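No replicate of skin exists, so no alternative measures the spread between rats. The count of precursors at least 2-fold higher in skin (126) lay between 89 and 163 under the pseudocounts, scalings, filters, annotations and the thinning to the shallowest library, and between 124 and 137 when each other library was left out. It was 66 at a 4-fold threshold and 79 relative to the median precursor, an alternative chosen after seeing the data. The count at least 2-fold lower (20) was more sensitive. It was 5 with a pseudocount of 10 RPM, 37 with DESeq2 size factors, 13 on mature miRNAs, 35 against the mean of the log2 levels, 2 at 4-fold and 53 relative to the median precursor, and 16 to 20 with a library left out. The share of higher precursors among those past 2-fold was 86.3%, but 70.6% with DESeq2 size factors, 75.7% against the mean of the log2 levels and 59.8% relative to the median precursor. Skin was the highest tissue for 16 precursors, for 25 on mature miRNAs, and for 15 to 20 with a library left out, the most without muscle. The cause of these moves was not tested. Differences of the precursors named by rule, list members apart, were followed under the pseudocounts, scalings, mean of the log2 levels and left-out libraries. None past the 2-fold threshold changed its direction there. Their direction under the other filters, annotations and the thinning was not examined. Depth limits levels near the floor of 3 reads, such as those of mir-1, mir-206 and mir-451.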
